A study of Mus musculus with 23 samples.

Results

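The 6 mouse genes Pcgf1, Pcgf2, Pcgf3, Bmi1, Pcgf5 and Pcgf6 encode the PCGF (polycomb group ring finger) proteins, and BMI1 is the family member also known as PCGF4. They were taken by gene name and are 6 of the 23369 gene names in the deposited RNA-seq tables. Each was listed on a single row in every table, with a completed quantification in all 6 samples, and all 6 passed the filter on low values.

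Messenger RNA had been sequenced from Kdm2b fl/fl mouse ESCs. In these the exon coding for most of the ZF-CxxC domain of KDM2B is flanked by loxP sites on both alleles. According to the paper, the allele was made in MS12 ESCs, and the fl/fl lines were raised later from matings of mice carrying it. All samples, untreated ones included, carry this floxed allele together with a tamoxifen-inducible Cre expressed from Rosa26. All derive from 1 such line, which had been raised on mouse embryonic fibroblast feeders with LIF. The compared groups are 3 untreated samples and 3 samples given tamoxifen for 72 hr, with replicates numbered 1 to 3 in each group. In the paper, tamoxifen leads to removal of the floxed exon. No RNA-seq sample without the floxed allele was given tamoxifen. Effects of the drug, of Cre activity and of the loss of the exon therefore cannot be told apart here. The dose is stated as 800 nM for each sample and as 800 µM in the series description. Treatment was assigned by sample label. The file names say the reverse for all 6 samples, and if they were right, every difference below would keep its size and take the other sign. The ChIP-seq samples of the series were not analysed here.

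PRC1 (polycomb repressive complex 1) is an E3 ligase that attaches ubiquitin to histone H2A at silenced developmental genes. Its catalytic subunit, RING1A (Ring1) or RING1B (Rnf2), forms a dimer with 1 PCGF protein through their RING fingers, and the PCGF protein sets which other subunits join. PCGF2 and BMI1 form the canonical complexes with CBX and PHC proteins. All PCGF proteins, these included, can form variant complexes with RYBP or YAF2 in place of CBX proteins. PCGF1 assembles with BCOR and KDM2B, and PCGF3 and PCGF5 with AUTS2, FBRS and casein kinase 2. PCGF6 assembles with L3MBTL2, MGA, MAX and E2F6. KDM2B binds unmethylated CpG-rich DNA through its ZF-CxxC domain and brings the PCGF1 complex to CpG islands.

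The RING finger is the part that all PCGF proteins share and through which they meet RING1A or RING1B, and its coding sequence is shown to let the paralogs be set against each other. Each sequence runs 5′ to 3′ on the strand of the gene, from the first to the last zinc-binding residue of the C3HC4 finger, with the codons of the 8 zinc-binding residues (cysteines and a histidine) in capitals. The sequences were read from GENCODE protein-coding transcripts and placed on the NCBIM37 (mm9) genome with the GENCODE annotation. Each interval below includes the intron that interrupts it.
Pcgf1, chr6:83028934-83029165, plus strand, exons 2 and 3: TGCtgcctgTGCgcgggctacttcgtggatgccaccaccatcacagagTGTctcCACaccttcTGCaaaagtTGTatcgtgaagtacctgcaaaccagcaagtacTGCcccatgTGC
Pcgf2, chr11:97554081-97554790, minus strand, exons 5 and 6: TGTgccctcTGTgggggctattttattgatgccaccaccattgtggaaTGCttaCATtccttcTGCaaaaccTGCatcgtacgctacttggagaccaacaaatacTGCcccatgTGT
Pcgf3, chr5:108902865-108904184, plus strand, exons 4 and 5: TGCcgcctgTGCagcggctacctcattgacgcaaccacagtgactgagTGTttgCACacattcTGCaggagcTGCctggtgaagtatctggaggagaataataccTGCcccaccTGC
Bmi1, chr2:18603490-18603905, plus strand, exons 2 and 3: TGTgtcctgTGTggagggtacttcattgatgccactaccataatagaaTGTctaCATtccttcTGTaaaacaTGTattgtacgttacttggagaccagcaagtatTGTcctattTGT
Pcgf5, chr19:36486666-36509115, plus strand, exons 2 and 3: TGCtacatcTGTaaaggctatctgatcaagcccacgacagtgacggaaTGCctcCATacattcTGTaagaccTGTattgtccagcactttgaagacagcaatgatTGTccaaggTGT
Pcgf6, chr19:47123331-47123540, minus strand, exons 2 and 3: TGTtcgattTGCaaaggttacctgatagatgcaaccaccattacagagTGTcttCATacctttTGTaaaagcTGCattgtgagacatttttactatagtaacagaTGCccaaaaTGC

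All 6 stretches are 117 bases (39 codons) long, and in all 6 the intron lies after base 61. The closest pair was Pcgf2 and Bmi1, the canonical paralogs, with 80.3% of these bases identical and 64.6% over the whole coding sequence. The most distant pair was Pcgf3 and Bmi1, with 57.3% of the bases identical. Although the paralogs are related, no stretch of 51 bases, the read length of the libraries, was shared between any of their protein-coding transcripts. Stretches that also occur in protein-coding transcripts of other genes made up 0.694% of those in Pcgf6 and none of those in the other 5. Noncoding transcripts, pseudogenes and the rest of the genome were not searched.

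The genes stand apart from one another in the genome, except that Pcgf5 and Pcgf6 are both on chromosome 19. In mm9 the deposited loci are chr6:83028384-83030849 for Pcgf1, chr11:97550137-97561811 for Pcgf2, chr5:108890351-108932118 for Pcgf3, chr2:18598645-18608256 for Bmi1, chr19:36453557-36530694 for Pcgf5 and chr19:47108109-47125335 for Pcgf6. No other gene overlaps them. Within 3000 bases lie Commd3, 801 bases from Bmi1, and Cisd3 and Psmb3, 197 and 2936 bases from Pcgf2. Of these Commd3 had a mean of 27.0 FPKM in the untreated samples, above that of Bmi1. Cisd3 had a mean of 38.0 FPKM there, and Psmb3 one of 116 FPKM, above that of Pcgf2. Around the start of the locus, in a window of 1001 bases, 5 of the 6 paralogs had a CpG-rich promoter (at least 0.6 of the CpG expected from its base content, and at least 55% GC), as did 41.1% of 21105 promoters measured in this way. Bmi1 had 133 CpG in the window, Pcgf2 96, Pcgf1 87, Pcgf6 77 and Pcgf3 69. The exception was Pcgf5 with 16, but RefSeq lists 3 starts for this gene, and windows of 300 bases there held 34, 5 and 35 CpG.

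Values are FPKM, that is fragments scaled by transcript length and by the mapped total per sample. This allows for length when levels of genes are compared, but not for a length effect that differs between samples. The sum of FPKM over all rows still differed between samples, from 549379 in untreated replicate 1 to 1045710 in untreated replicate 2. The main fit was made without further scaling. Read totals are not part of these tables. Steps of single fragments, visible in a minority of genes of low level, gave the other 5 samples an estimated depth of 0.654 to 0.954 relative to untreated replicate 1. Between 11571 and 11980 rows per sample reached 1 FPKM. All 9 ESC markers examined, Pou5f1 and Nanog among them, were above 1 FPKM in every sample. Of 9 fibroblast markers 6 were above 1 FPKM in every sample, and Lum was at 0 in untreated replicate 1. The summed FPKM of the 9 was 88.5, 224 and 214 in untreated replicates 1 to 3 and 85.8, 185 and 195 in the tamoxifen samples. S100a4, at 39.7 to 138 FPKM, was the largest part of each sum. The targeted gene Kdm2b stood at 27.0, 21.5 and 27.7 FPKM in untreated replicates 1, 2 and 3 and at 19.9, 21.9 and 25.0 FPKM in tamoxifen replicates 1, 2 and 3. The groups overlap, and since 1 value for the whole gene does not resolve the floxed exon, it does not check the labels.

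To establish which PRC1 variants the ESCs could assemble at the level of PCGF mRNA, the paralogs were first compared within the untreated samples. Transcripts of all 6 were present, and their means covered a range from 2.93 to 43.6 FPKM. Pcgf2, of the canonical complexes, was the most abundant at 43.6 ± 4.67 FPKM (SD, n = 3), and its canonical counterpart Bmi1 the least abundant at 2.93 ± 1.48 FPKM. Between them came Pcgf6 at 27.1 ± 3.76 FPKM, Pcgf3 at 19.4 ± 4.31 FPKM, Pcgf5 at 12.5 ± 2.32 FPKM and Pcgf1 at 6.77 ± 1.50 FPKM. Pcgf2 thus lay above 85.6% of the 12997 genes tested and Bmi1 above 24.0%, with Pcgf6 above 76.4%, Pcgf3 above 68.2%, Pcgf5 above 56.8% and Pcgf1 above 41.6%.

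**Figure D1:**
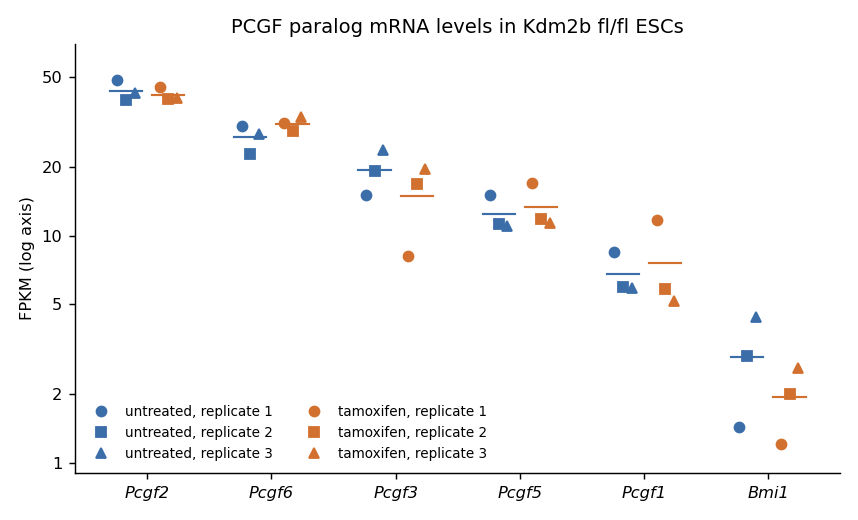
FPKM of the 6 PCGF paralogs on a log axis, with 1 point per sample (blue untreated, orange tamoxifen, marker shape giving the replicate number) and a horizontal line at each group mean. The order from Pcgf2 to Bmi1 appears in both groups except for Pcgf3 in tamoxifen replicate 1, and the untreated and tamoxifen points of each paralog overlap.

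The order was read from the untreated means and then tested by comparing neighbours within each of the 6 samples, using an exact permutation of the signs of the log2 differences (two-sided, 5 pairs, smallest possible p = 0.0312). Because 3 of the 6 samples also set the order, the test is not independent of it. Pcgf2 exceeded Pcgf6 in 6 of 6 samples, by 0.55 ± 0.18 on the log2 scale (SD over samples), or 1.47-fold. Pcgf6 exceeded Pcgf3 in 6 of 6 samples by 0.82 ± 0.62, Pcgf5 exceeded Pcgf1 in 6 of 6 by 0.89 ± 0.20, and Pcgf1 exceeded Bmi1 in 6 of 6 by 1.58 ± 1.05 on the same scale. Each of these 4 steps reached the smallest possible p = 0.0312 in the exact permutation test (adjusted p = 0.0391). This p treats the 6 samples as independent. Same-numbered samples are not independent, and with 3 replicate numbers as the units an exact permutation p cannot go below 0.25, so that the steps would not pass. Pcgf3 and Pcgf5, which code for proteins of closely related complexes, did not differ beyond their spread, with a difference of 0.35 ± 0.78 (range -1.05 to 1.11, above 0 in 5 of 6 samples, exact permutation p = 0.281). In tamoxifen replicate 1 the level of Pcgf3 was below those of Pcgf5 and Pcgf1, and the other 5 samples had the order of the untreated means. Within the 3 untreated samples alone every step went the same way in 3 of 3, where an exact permutation p cannot go below 0.25.

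Expressed as a share of the summed PCGF FPKM, which was 112 ± 9.18 in the untreated samples and 111 ± 4.73 in the tamoxifen samples, Pcgf2 made up 38.8% ± 1.99 (SD, n = 3) of the untreated total. Pcgf6 contributed 24.1% ± 1.44, Pcgf3 17.4% ± 4.12, Pcgf5 11.1% ± 1.61, Pcgf1 6.01% ± 1.05 and Bmi1 2.63% ± 1.31. The canonical paralogs Pcgf2 and Bmi1 together held 41.4% ± 0.722, so that most PCGF mRNA came from the other 4 paralogs. Since PCGF2 and BMI1 can also join variant complexes, this is not a split between canonical and variant complexes. The ratio of Pcgf2 to Bmi1 was uneven, ranging from 9.72 in untreated replicate 3 to 37.5 in tamoxifen replicate 1. For comparison, the catalytic subunits Ring1 and Rnf2 summed to 41.3 ± 8.98 FPKM in the untreated samples. The summed PCGF FPKM exceeded this sum of Ring1 and Rnf2 by a ratio of 2.78 (mean of 3 samples, SD 0.435). Rnf2 was the main catalytic gene, at 6.05 to 15.4 times the FPKM of Ring1.

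**Figure D2:**
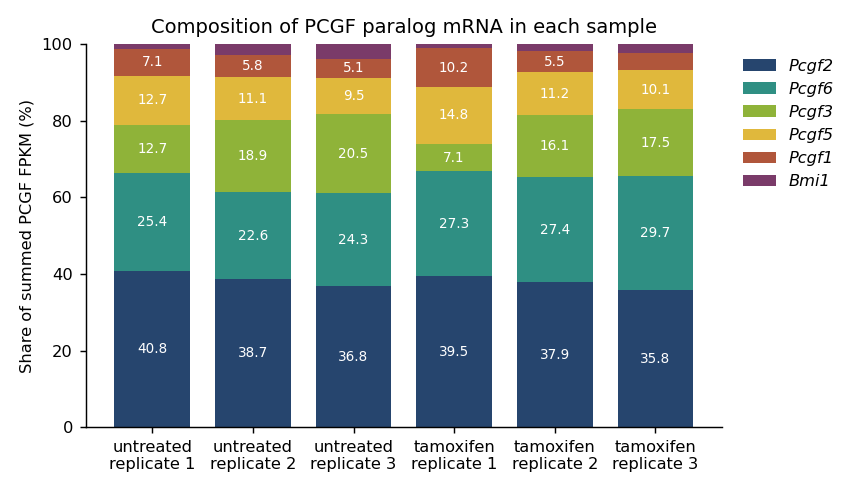
Share of each paralog in the summed FPKM of the 6 PCGF genes, in percent, with 1 stacked bar per sample. Pcgf2 takes 35.8% to 40.8% and Pcgf6 22.6% to 29.7% of every bar, whereas Pcgf3 ranges from 7.12% in tamoxifen replicate 1 to 20.5% in untreated replicate 3.

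To ask whether the PCGF genes respond to tamoxifen in these cells, the groups were compared with limma on log2(FPKM + 0.1), a scale on which changes of low genes are somewhat understated. None of the 6 paralogs passed the threshold of adjusted p = 0.05. None had an unadjusted p under 0.05, and no paralog had groups that did not overlap. Over all 12997 genes tested the same fit called 0.0308%, 4.79% had an unadjusted p under 0.05 and 8.49% had groups that did not overlap. A low count among 6 genes is therefore what the background leads to, and the width of the intervals sets what could have been seen. The cells were measured in bulk, where fewer cells of a type and less RNA per cell cannot be told apart.

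Pcgf2 encodes a canonical PCGF subunit and had more mRNA than Bmi1, the other canonical paralog, in every sample. Its level was 48.6, 39.4 and 42.7 FPKM in untreated replicates 1, 2 and 3 and 45.4, 40.0 and 40.3 FPKM in tamoxifen replicates 1, 2 and 3. Replicate 1 was the highest of both groups, and the groups overlap almost fully. The log2 fold change (tamoxifen minus untreated) was -0.05 ± 0.20 (SE, n = 3 per group), with a 95% interval from -0.51 to 0.40.

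Bmi1 encodes the other canonical subunit, known for holding the Cdkn2a locus silent in stem and progenitor cells. It had 1.44, 2.96 and 4.39 FPKM in untreated replicates 1, 2 and 3 and 1.21, 2.01 and 2.62 FPKM in tamoxifen replicates 1, 2 and 3. The level was lower in the tamoxifen sample of every replicate number, but the spread between replicates was larger than this difference and the groups overlap. The log2 fold change was -0.50 ± 0.45 (95% interval -1.51 to 0.52).

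Pcgf1 encodes the PCGF subunit of the KDM2B complex, the complex that the floxed exon concerns. Its level was 8.50, 5.94 and 5.86 FPKM in untreated replicates 1, 2 and 3 and 11.7, 5.82 and 5.13 FPKM in tamoxifen replicates 1, 2 and 3. Both values of replicate 1 lie above the other 4, with tamoxifen replicate 1 the highest. The log2 fold change was 0.08 ± 0.34 (95% interval -0.70 to 0.86), and it was below 0 (-0.28) when tamoxifen replicate 1 was left out. Kdm2b had 1.70 to 4.88 times the FPKM of Pcgf1, the lowest ratio being that of tamoxifen replicate 1.

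Pcgf3 and Pcgf5 encode the subunits of the complexes with AUTS2 and casein kinase 2. Pcgf3 had 15.2, 19.2 and 23.8 FPKM in untreated replicates 1, 2 and 3 and 8.17, 17.0 and 19.7 FPKM in tamoxifen replicates 1, 2 and 3, so that replicate 1 was the lowest of each group. Its log2 fold change was -0.45 ± 0.35 (95% interval -1.24 to 0.35), the second lowest of the family after Bmi1. It moved to -0.06 when tamoxifen replicate 1 was left out.

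Pcgf5 had 15.1, 11.3 and 11.0 FPKM in untreated replicates 1, 2 and 3 and 17.0, 11.8 and 11.4 FPKM in tamoxifen replicates 1, 2 and 3. Here replicate 1 was the highest of each group, the reverse of Pcgf3. The log2 fold change was 0.09 ± 0.25 (95% interval -0.47 to 0.66), and it was -0.09 without tamoxifen replicate 1.

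Pcgf6 encodes the subunit of the E2F6 and MGA complex. Its level was 30.3, 23.0 and 28.2 FPKM in untreated replicates 1, 2 and 3 and 31.4, 29.0 and 33.3 FPKM in tamoxifen replicates 1, 2 and 3. The lowest tamoxifen value lies below the highest untreated value, so the groups just overlap. The log2 fold change was 0.21 ± 0.20 (95% interval -0.26 to 0.68).

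In the deposited tables each FPKM comes with its own confidence interval. For 5 of the 36 PCGF values the FPKM lay above the upper bound of that interval (2 of Pcgf1, 2 of Pcgf6 and 1 of Pcgf5), so these intervals were not used as errors.

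Over all genes, same-numbered samples departed from their group means in a like way, as described with the processing. The replicate number accounted for 94.9% of the variance of log2(FPKM + 0.1) over the 6 samples for Pcgf5, 87.8% for Pcgf2, 87.7% for Pcgf1, 80.1% for Bmi1, 68.5% for Pcgf3 and 49.4% for Pcgf6, against a median of 77.0% (SD 24.7) over all genes tested. Pcgf3 and Pcgf6 were thus below this median and the other 4 above it. The group accounted for 38.3% of the variance for Pcgf6, 21.1% for Pcgf3, 17.0% for Bmi1, 6.14% for Pcgf2, 3.84% for Pcgf5 and 0.943% for Pcgf1, with a median of 10.6% over all genes. Replicate 1 differed from the other replicates in both directions within the family. Relative to the mean of replicates 2 and 3, its level on the log2 scale was higher for Pcgf1 (0.80), Pcgf5 (0.49), Pcgf2 (0.21) and Pcgf6 (0.13), and lower for Pcgf3 (-0.82) and Bmi1 (-1.07). Over all genes tested this difference had an SD of 0.731, which the values of Pcgf1 and Pcgf3 exceed slightly and that of Bmi1 by more. The summed fibroblast markers were likewise lower in replicate 1 than in replicates 2 and 3 of both groups, and their part in the low values of Bmi1 and Pcgf3 was not tested. The transcripts read for the RING stretches had 870 bases for Pcgf1, 1626 for Pcgf5, 1755 for Pcgf2 and 2098 for Pcgf6. Those of Bmi1 and Pcgf3, the paralogs lower in replicate 1, had 3594 and 7708 bases. These need not be the models that set the FPKM. The part of transcript length in the replicate differences, the order and the shares was not tested.

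Differences within a replicate number remove this shared part. Bmi1 was lower in the tamoxifen sample in 3 of 3 numbers, by -0.23, -0.54 and -0.72 on the log2 scale for replicates 1, 2 and 3. Pcgf3 was lower in 3 of 3, with differences of -0.88, -0.18 and -0.27. Pcgf6 was higher in 3 of 3, with differences of 0.05, 0.33 and 0.24, and Pcgf5 was higher in 3 of 3, with differences of 0.17, 0.07 and 0.05. Pcgf1 (0.45, -0.03 and -0.19) and Pcgf2 (-0.10, 0.02 and -0.08) changed sign between numbers. Thus 4 of 6 paralogs kept a direction, as did 53.0% of all genes tested. The 2 that were lower in every number stand against 28.2% of all genes, and the 2 that were higher against 24.8%.

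With the replicate number as a block, limma gave smaller errors, with a median SE of 0.123 against 0.293 without it over all genes, and again called none of the 6 paralogs, while 10.4% of all genes were called. The smallest adjusted p-values were those of Bmi1 (adjusted p = 0.0925, log2 fold change -0.50 ± 0.16, 95% interval -0.87 to -0.12) and Pcgf3 (adjusted p = 0.0957, log2 fold change -0.45 ± 0.15, 95% interval -0.79 to -0.10). Both had an unadjusted p under 0.05 in this fit, as did 29.8% of all genes. Pcgf6 had a 95% interval from -0.02 to 0.44 (adjusted p = 0.203). For Pcgf2 (-0.26 to 0.15, adjusted p = 0.718), Pcgf5 (-0.14 to 0.33, adjusted p = 0.553) and Pcgf1 (-0.26 to 0.42, adjusted p = 0.749) the intervals lay around 0 and within 0.5 on either side. When both samples of replicate 1 were left out of the blocked fit, an analysis added after the data had been seen, Bmi1 passed the threshold with a log2 fold change of -0.63 (adjusted p = 0.016). It was the only call for a paralog in any analysis run, and it rests on leaving out replicate 1. The share of all genes called in that fit is not given here, so this call has no background to be set against. With the block and quantile normalization the 95% interval of Bmi1 included 0 (-0.78 to 0.018, adjusted p = 0.195), while that of Pcgf3 did not (-0.71 to -0.10, adjusted p = 0.0986). With the block and TPM scaling the adjusted p was 0.512 for Bmi1 and 0.428 for Pcgf3.

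**Figure D3:**
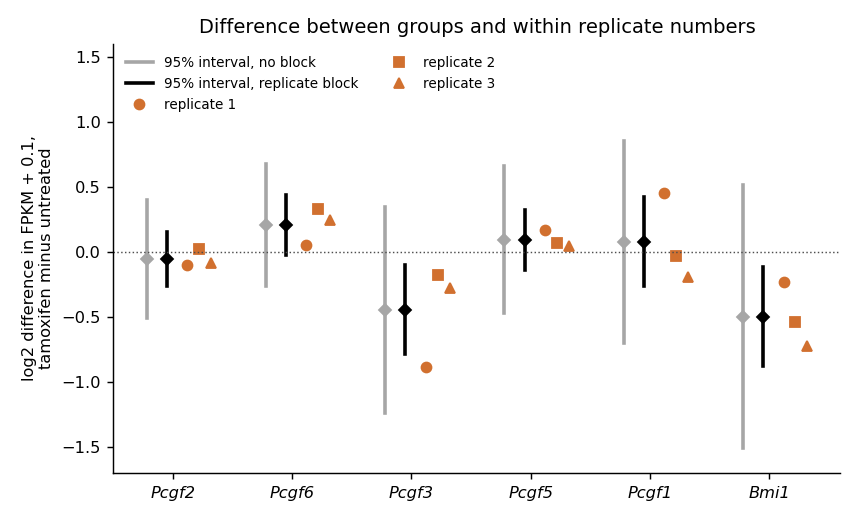
Log2 difference in FPKM + 0.1, tamoxifen minus untreated, for the 6 paralogs, with the limma estimate and 95% interval without a block (grey) and with the replicate block (black) and the 3 differences within a replicate number (orange). Bmi1 and Pcgf3 lie below 0 in all 3 numbers and their black intervals exclude 0, although neither passed after adjustment over all genes and the interval of Bmi1 includes 0 with quantile normalization.

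No share in the summed PCGF FPKM passed the threshold between the groups. The share of Pcgf6 was 25.4%, 22.6% and 24.3% in untreated replicates 1, 2 and 3 and 27.3%, 27.4% and 29.7% in tamoxifen replicates 1, 2 and 3, and so every tamoxifen sample lay above every untreated one. The difference of 4.04 percentage points gave an exact permutation p = 0.1, the smallest that 3 samples against 3 allow (two-sided, adjusted p = 0.35 over 7 shares). The joint share of the canonical Pcgf2 and Bmi1 was 42.0%, 41.6% and 40.6% in the untreated replicates and 40.6%, 39.8% and 38.2% in the tamoxifen replicates, with groups that come close but do not overlap (40.62% in untreated replicate 3 against 40.57% in tamoxifen replicate 1). This difference of -1.91 points also had an exact permutation p = 0.1 (adjusted p = 0.35). The other shares had groups that overlap, with differences of -3.82 points for Pcgf3 (exact permutation p = 0.5), 0.955 for Pcgf5 (p = 0.6), -0.871 for Bmi1 (p = 0.4), 0.74 for Pcgf1 (p = 0.9) and -1.04 for Pcgf2 (p = 0.5). Within replicate numbers, the shares of Pcgf3, Bmi1, Pcgf2 and both canonical genes together were lower and those of Pcgf5 and Pcgf6 higher in 3 of 3, each with an exact permutation p = 0.25 over sign flips, the smallest possible (adjusted p = 0.292). Pcgf1 changed sign between numbers. The difference for Pcgf3 was -0.602 points without tamoxifen replicate 1. Shares of 1 total are not independent of each other.

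The way the paralogs varied over the 6 samples followed the replicates. Pearson's r of log2(FPKM + 0.1) was 0.968 between Pcgf1 and Pcgf5 and 0.880 between Pcgf3 and Bmi1, whereas it was -0.918 between Pcgf3 and Pcgf5, -0.911 between Pcgf1 and Pcgf3 and -0.904 between Bmi1 and Pcgf5. Pcgf6 had no r above 0.394 with any other paralog. The canonical pair Pcgf2 and Bmi1, the closest in sequence, had an r of -0.601. These values describe 6 points that share 3 replicate numbers and are not tests.

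The same holds for the genes whose pattern over the 6 samples was most like that of a paralog. For Pcgf1 they were Rab8a (r = 0.998), Timm10b (0.993) and Rpl39 (0.992), and for Pcgf5 Snrpd2 (0.999) and Ubxn1 (0.998). For Pcgf3 they were Sox4 (0.999), Ubr3 (0.998) and Setd2 (0.997), and for Bmi1 Map9 (0.997), Tbc1d23 (0.996) and Vegfc (0.995). Pcgf2 was nearest to 1110051M20Rik (0.993), Cbs (0.991) and Erich1 (0.989), and Pcgf6 to Smyd5 (0.996), Ahcyl1 (0.995) and Gm15455 (0.994). Such likeness was common, since 536 genes had an r over 0.95 with Pcgf5, 480 with Pcgf3, 240 with Pcgf1, 189 with Bmi1, 103 with Pcgf6 and 88 with Pcgf2.

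The genes of the other PRC1 subunits were examined by the PCGF protein they assemble with, 33 genes in 5 lists, all of which passed the filter. Without a block limma called none of them, and with the replicate block it called none as higher and 1, Bcor, as lower, against 4.33% and 6.06% of all genes. The groups did not overlap for 4 of the 33, Bcor, Bcorl1, Cbx8 and Auts2, against the 8.49% of all genes given above. Some of these genes have been described in earlier results of these data, from which the lists are not independent.

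Among the 5 genes of the PCGF1 complex the median log2 fold change was -0.19, against -0.02 over all genes tested. Bcor, which encodes a corepressor that binds PCGF1 directly, had 51.3, 60.0 and 64.5 FPKM in untreated replicates 1, 2 and 3 and 5.82, 11.6 and 13.3 FPKM in tamoxifen replicates 1, 2 and 3. Every tamoxifen sample lay far below every untreated one. The log2 fold change was -2.58 ± 0.32 (SE without a block, adjusted p = 0.066), and Bcor fell past the threshold with the block (adjusted p = 0.0015). Bcorl1, its paralog, had a log2 fold change of -0.57 (adjusted p = 0.111 with the block), Kdm2b -0.19 (adjusted p = 0.306), Usp7 0.04 (adjusted p = 0.827) and Skp1a 0.37 (adjusted p = 0.074). Pcgf1 itself stood at 6.77 ± 1.50 FPKM beside 58.6 ± 6.70 FPKM of Bcor in the untreated samples, and at 7.54 ± 3.59 beside 10.2 ± 3.92 FPKM in the tamoxifen samples.

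For the canonical partners of Pcgf2 and Bmi1, 8 genes of CBX, PHC and SCMH proteins, the median log2 fold change was -0.06. None of them passed the threshold in either fit. Cbx8, a chromodomain subunit of low level, had 1.39, 1.43 and 1.91 FPKM in untreated replicates 1, 2 and 3 and 0.859, 1.06 and 1.00 FPKM in tamoxifen replicates 1, 2 and 3. The groups did not overlap, with a log2 fold change of -0.63 (adjusted p = 0.074 with the block). The abundant canonical genes showed smaller differences. Cbx7, at 58.8 ± 7.23 FPKM in the untreated samples, had a log2 fold change of -0.10, and Phc1, at 133 ± 20.1 FPKM, one of -0.04.

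The 7 genes of the PCGF3 and PCGF5 complexes had a median log2 fold change of 0.18. Auts2 had 2.73, 2.59 and 2.71 FPKM in untreated replicates 1, 2 and 3 and 3.18, 4.76 and 4.83 FPKM in tamoxifen replicates 1, 2 and 3. All tamoxifen samples lay above the untreated ones, with a log2 fold change of 0.63. Auts2 missed the threshold with the block (adjusted p = 0.054). With the block and quantile normalization it passed (adjusted p = 0.031), in a fit for which no share of all genes is given here. The casein kinase 2 genes Csnk2a1, Csnk2a2 and Csnk2b had log2 fold changes of 0.20, 0.18 and 0.19, and Fbrs one of -0.28, none past the threshold. The 9 genes of the PCGF6 complex had a median of 0.11, from -0.09 for Mga to 0.33 for Cbx3 (adjusted p = 0.061 with the block). The last list held 4 genes, Ring1 and Rnf2 of the catalytic subunits and Rybp and Yaf2 of proteins that bind these subunits. None of the 4 passed in either fit, and their median was -0.04. Rnf2, the more abundant catalytic gene, had 34.6, 28.2 and 46.3 FPKM in untreated replicates 1, 2 and 3 and 34.2, 31.0 and 47.6 FPKM in tamoxifen replicates 1, 2 and 3, the highest value of each group being that of replicate 3.

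**Figure D4:**
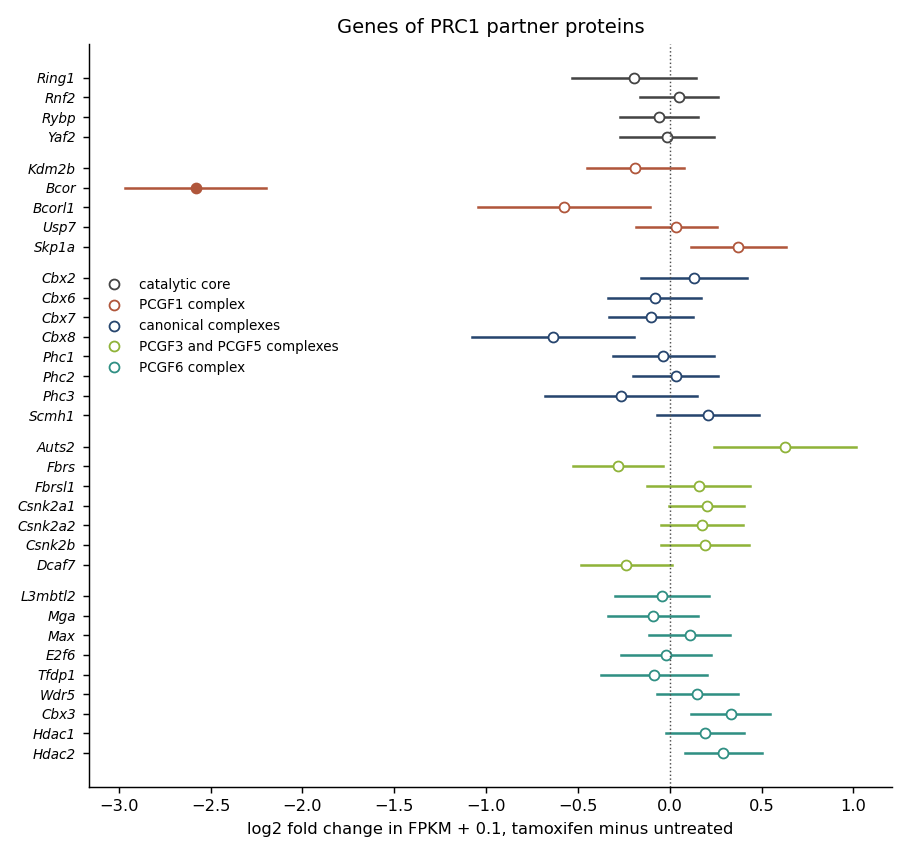
Log2 fold change in FPKM + 0.1, tamoxifen minus untreated, of 33 genes of PRC1 partner proteins with the 95% interval of the limma fit with the replicate block, grouped by complex. The filled symbol marks Bcor (-2.58), the 1 gene called in this fit, and open symbols the other genes. The group labelled catalytic core holds Rybp and Yaf2 beside the catalytic genes Ring1 and Rnf2.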

How the data were processed

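PolyA+ directional libraries of 3 untreated and 3 tamoxifen-treated samples were sequenced by the authors as paired 51-bp reads, aligned to mm9 with Tophat2 and quantified with cuffdiff on refGene models, and the deposited values are FPKM per gene. The other samples of the series, 23 in all, were not analysed here. FPKM of rows sharing a gene name were summed, and 6 gene names were dropped because at least 1 sample carried a failed status. Genes with at least 0.5 FPKM in at least 3 of 6 samples entered the fit on log2(FPKM + 0.1), made without further scaling in limma 3.58.1 under R 4.3.3 (moderated with a mean-variance trend, Benjamini-Hochberg over 12997 genes, threshold 0.05). The fit was tested on simulated data. Shares and within-sample orders were compared by exact permutation in Python 3.11.15 with scipy 1.17.1.

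Groups and replicate numbers come from the sample labels. Deviations from the group means correlated at 0.544, 0.605 and 0.506 between same-numbered samples and at -0.105 or below between others, over all genes tested. Deviations within a group cancel out for each gene, so the negative values largely follow from the positive ones and are not separate evidence. From the positive values the numbers were taken to pair the samples, and a fit with the number as a block was run beside the unblocked one. The study describes biological replicates, and no source says what a number shares.

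The paralogs, the partner and marker lists and the tests were chosen with earlier results of these data known. Genes named are the paralogs, the 33 partner genes, the 3 genes most correlated with each paralog (1 further gene of the partner lists and 1 correlated gene were left out and are not reported here), marker genes and gene neighbours. Alternatives were other pseudocounts (1 and 0.01), TPM scaling, quantile normalization, other filters, eBayes without a trend, the replicate block and leaving out samples. No read counts could be recovered reliably, since only 17.0% to 23.2% of 1027 to 1136 low genes fell on a step of single fragments, so no counting interval is given.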

Additional observations from a re-analysis of the deposited data

How the results depend on the processing

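No paralog passed the threshold in 22 of 23 alternatives. The exception, added after the data had been seen, was the replicate block without replicate 1, with 1 call (Bmi1, -0.63). Otherwise the replicate block changed no call for a paralog. Shares of all genes called are given only for the unblocked fit and the full replicate block. Calls of paralogs or partner genes in the other alternatives therefore have no background here. Log2 fold changes of Bmi1, Pcgf3 and Pcgf6 kept their sign in all 23. Without 1 sample or replicate number, Bmi1 ranged from -0.92 to -0.15, Pcgf3 from -0.69 to -0.06, Pcgf6 from 0.09 to 0.29, Pcgf1 from -0.28 to 0.30, Pcgf2 from -0.12 to 0.028 and Pcgf5 from -0.089 to 0.24. Pcgf1 was also -0.11 with the replicate block without replicate 1, and Pcgf2 was 0.047 when scaled to TPM, with or without the block, which moved the median of all genes from -0.02 to 0.08. Partner genes called numbered 0 in the unblocked fit, 0 to 1 without 1 sample, 1 with the replicate block alone or with TPM, 2 with the block and quantile normalization, and 1 to 2 with the block without 1 replicate number. Differences in share without 1 sample or number ranged from -0.97 to 1.83 points for Pcgf1, -0.44 to 1.93 for Pcgf5, -6.15 to -0.60 for Pcgf3, -1.59 to -0.29 for Bmi1, -2.02 to -0.03 for Pcgf2 and 3.27 to 5.11 for Pcgf6. Leaving out samples kept the direction of all steps of the order (Pcgf2 over Pcgf6 0.51 to 0.61, Pcgf6 over Pcgf3 0.51 to 0.99, Pcgf3 over Pcgf5 0.06 to 0.79, Pcgf5 over Pcgf1 0.82 to 0.99, Pcgf1 over Bmi1 0.96 to 2.03). The step from Pcgf3 to Pcgf5 thus nearly vanished at its lowest. Fewer samples cannot reach the threshold, as with the 3 untreated samples only (0.69, 0.50, 0.62, 0.88 and 1.29 in the same sequence). Relative depth is a weak estimate and read totals are unknown, and with 3 samples a group, differences smaller than the intervals given were not detectable.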
